A study of Mus musculus with 6 samples.

Results

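FOXO and KLF transcription factors hold T cells in quiescence, and the receptors they sustain let the cells survive on IL-7 and leave lymphoid tissue. FOXO1 and FOXO3 are forkhead factors that stay in the nucleus of a resting T cell and are phosphorylated by AKT and expelled from it when the antigen receptor and CD28 signal. FOXO1 promotes transcription of *Klf2* and of *Il7r*, and KLF2 in turn promotes *S1pr1*, whose product senses the sphingosine-1-phosphate (S1P) gradient that draws T cells into lymph and blood. Members of this circuit were followed in Th17 cells carrying a RORγt mutation: *Foxo1*, *Foxo3*, *Klf2*, *Klf3*, *Klf6*, *Klf13*, *S1pr1*, *S1pr4* and *Il7r*. They were chosen by symbol, and 9 of 9 were found among the 16244 genes of the expression table.

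Naive CD4+ T cells from the spleen of wild-type (WT) mice or of RORγtN275D knockin mice, whose RORγt carries an asparagine to aspartate substitution, were cultured for 3 days with anti-CD3 and anti-CD28 under pathogenic Th17 conditions. The submitters name IL-6, IL-1β and IL-23 as the polarizing cytokines, and the methods list TGF-β with antibodies to IL-4 and IFN-γ as well. Each genotype had 3 RNA-seq libraries, with 17905693 to 18510878 reads on genes in WT and 17659035 to 17888463 in RORγtN275D. WT mice were bought as C57BL/6, listed among the paper's resources as C57BL/6NJ. The knockin mice, made with CRISPR-Cas9 in C57BL/6, were obtained elsewhere, and their substrain is not given. A difference of substrain or source could not be told apart from the mutation. The labels give neither age, sex nor zygosity for these libraries, nor whether libraries of a genotype came from separate mice or cultures, so p-values measure only the spread between libraries. Genes averaging at least 10 normalized reads were tested, and limma gave 50.9% of these 11908 an adjusted p under 0.05, the threshold for a call, so a call by itself was common. All T cell markers (7 of 7) passed the minimum, with 1 called higher and 3 lower in RORγtN275D cells. All Th17 markers (7 of 7) passed too, with 5 called higher and 1 lower. Of all genes tested, 24.7% were called higher and 26.1% lower. *Il17a*, between 27166 and 32673 normalized reads, was called higher, with a mean of 27495 in WT libraries and 32152 in the mutant.

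Among the 9 genes, 5 were called higher in RORγtN275D than in WT Th17 cells (*Il7r*, *S1pr1*, *Klf6*, *Foxo1* and *Klf13*), *Foxo3* was called lower, and *Klf2*, *Klf3* and *S1pr4* were not called. That is 66.7% called against 50.9% of all genes tested, with 55.6% called higher against 24.7% and 11.1% called lower against 26.1%. The 9 genes were chosen with earlier results of these data known, so the choice may have shaped these shares. The median log2 fold change of the 9 genes was 0.39, beside -0.0026 over all genes tested. The receptors *Il7r* and *S1pr1* moved furthest and were the only ones of the 9 to pass 2-fold, a size that 3.59% of all genes tested reached with a call, 2.73% upward and 0.857% downward. The libraries of the genotypes did not overlap for 7 of the 9 genes, as for 57.7% of all genes tested. Since these are bulk cultures, more cells that keep a transcript and more of it per cell cannot be told apart.

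The start of a gene is where FOXO and KLF factors may bind, so the sequence before it is shown for *Il7r*, *Klf6*, *Klf13* and *Foxo1*, the genes called higher that a RefSeq promoter table (GRCm38.p6) holds. The bases shown lie within 250 bases before the start of the promoter entry, with exons of the GENCODE M21 annotation left out. They run 5′ to 3′ on the strand of the gene. For *Il7r* that start lies inside the RefSeq span of the gene (9506159 to 9529941). The last bases shown for *Il7r* thus fall within the RefSeq gene, whose RefSeq exons were not left out. Capitals mark matches to the KLF motif on either strand that lie wholly within the bases shown.
*Il7r*, chr15:9529877-9530040, minus strand: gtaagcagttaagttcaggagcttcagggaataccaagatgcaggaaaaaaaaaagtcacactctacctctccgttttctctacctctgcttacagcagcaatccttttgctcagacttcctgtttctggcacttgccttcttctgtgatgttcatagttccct
*Klf6*, chr13:5861239-5861481, plus strand: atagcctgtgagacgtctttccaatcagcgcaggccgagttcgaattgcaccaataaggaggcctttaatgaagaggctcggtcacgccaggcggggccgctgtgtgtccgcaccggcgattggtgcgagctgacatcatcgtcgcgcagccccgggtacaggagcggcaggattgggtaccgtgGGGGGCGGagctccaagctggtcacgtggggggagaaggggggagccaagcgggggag
*Klf13*, chr7:63938916-63939165, minus strand: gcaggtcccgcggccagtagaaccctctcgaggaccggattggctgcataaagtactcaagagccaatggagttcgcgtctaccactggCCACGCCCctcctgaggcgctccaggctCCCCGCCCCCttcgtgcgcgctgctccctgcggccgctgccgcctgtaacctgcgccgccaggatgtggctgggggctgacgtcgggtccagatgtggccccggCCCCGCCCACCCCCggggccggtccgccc
*Foxo1*, chr3:52268087-52268335, plus strand: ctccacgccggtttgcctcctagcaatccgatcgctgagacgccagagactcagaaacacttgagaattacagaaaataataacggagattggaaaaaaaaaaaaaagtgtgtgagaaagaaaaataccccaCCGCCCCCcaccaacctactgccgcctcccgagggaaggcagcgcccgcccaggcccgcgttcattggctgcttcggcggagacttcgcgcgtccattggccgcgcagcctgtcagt
The windows searched ran from 250 bases before to 50 bases after the start, and 8 of the 9 genes had an entry. The KLF motif CCNCNCCC, which also takes in the GC box that Sp1 binds, was found in 6 of these 8 windows and in 49.5% of all 32851 windows of the table. *Klf3* had 10 matches, *Klf13* had 5, *Klf2* and *Foxo3* had 4 each, and *Klf6* and *Foxo1* had 3 each. The windows of *Il7r* and *S1pr4* held none, and their 250 bases before the start were 44.0% and 38.8% G and C, against 56.0% to 78.4% in the other genes. The FOXO motif GTAAACA was in 0 of the 8 windows, and in 3.65% of all windows. Whether the presence or absence of these motifs bears on the change of any of the genes was not tested. A match of letters is not a binding site, and distant elements lie outside these windows.

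*Foxo1* (chromosome 3, 52268337 to 52350109) had 1130.4, 1262 and 1215 normalized reads in WT libraries and 1612, 1538 and 1608 in RORγtN275D cells. Every mutant library lay above every WT library, and the means were 1202 ± 66.6 and 1586 ± 41.7 (3 libraries each, SD). The log2 fold change of *Foxo1*, the main FOXO factor of T cells, was 0.40 (limma, adjusted p = 5.89e-06, standard error 0.05).

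*Foxo3* (chromosome 10, 42181845 to 42276695) went the other way, from 1676, 1742 and 1804 normalized reads in WT to 1364, 1474 and 1397 in the mutant. The highest mutant library was below the lowest WT library. *Foxo3* encodes a relative of FOXO1 that promotes transcription of cell death and cell cycle arrest genes. Its log2 fold change was -0.30 (limma, adjusted p = 5.89e-05, standard error 0.05), a fall of the mean from 1741 ± 64.0 to 1412 ± 56.4 normalized reads (3 libraries each, SD). The ratio of *Foxo1* to *Foxo3* reads within a library does not depend on library scaling. It was 0.674, 0.724 and 0.673 in WT and 1.18, 1.04 and 1.151 in mutant libraries, 1.63-fold higher in the mutant (exact permutation test, two-sided p = 0.1, the smallest that 3 against 3 can give). *Foxo4* had a mean of 267 ± 4.21 normalized reads in WT libraries and 313 ± 16.6 in the mutant (3 libraries each, SD), with a log2 fold change of 0.23 (limma, adjusted p = 0.0146). That call was lost without N275D replicate 1 (adjusted p = 0.0807), under quantile scaling (0.0626) and by DESeq2 (0.0610). RNA levels do not show whether FOXO proteins were phosphorylated or in the nucleus.

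**Figure D1:**
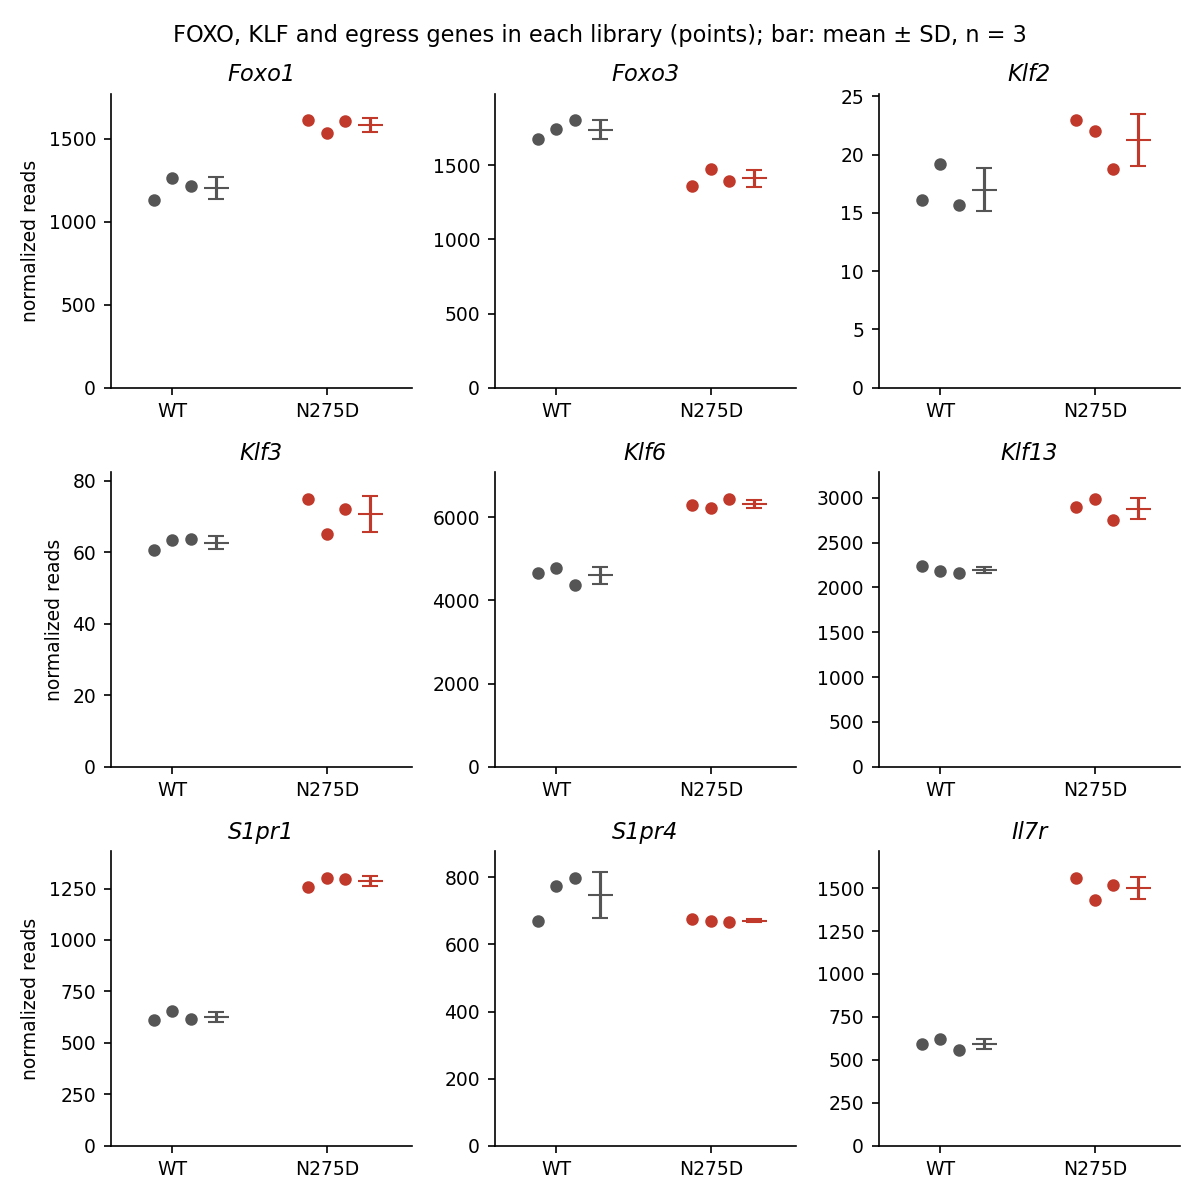
Normalized reads (vertical axes, from 0) of the 9 genes in the 3 WT and 3 RORγtN275D libraries; points are libraries and bars are the mean ± SD. *Il7r*, *S1pr1*, *Klf6*, *Klf13* and *Foxo1* sit higher and *Foxo3* lower in each mutant library than in any WT library, whereas *Klf2* and *S1pr4* overlap.

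The KLF factors are zinc finger proteins that bind CACCC and GC-rich elements. *Klf2* (chromosome 8, 72319062 to 72321654), the KLF most tied to T cell quiescence and egress, was the lowest of the 9 genes per kilobase in both genotypes. It had 16.1, 19.2 and 15.7 normalized reads in WT libraries and 23.0, 22.1 and 18.8 in RORγtN275D cells, so that the lowest mutant library fell below the highest WT library. The log2 fold change of *Klf2* was 0.31, with a 95% interval from -0.19 to 0.81 (limma, adjusted p = 0.2955), and under quantile scaling it was 0.093 (adjusted p = 0.763). With variances moderated without a trend on mean level, *Klf2* was nearer a call but still not called (limma, adjusted p = 0.0542). A rise of up to 0.81 or a small fall could not be told apart at this depth.

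*Klf3* (chromosome 5, 64803521 to 64832901), a KLF factor that mostly represses transcription, was also low. It had 60.6, 63.55 and 63.8 normalized reads in WT libraries and 74.9, 65.2 and 72.1 in the mutant. The genotypes did not overlap, but the log2 fold change of 0.17 (95% interval -0.10 to 0.44, adjusted p = 0.288 from limma) did not pass the test. Under quantile scaling it was -0.012. With variances moderated without a trend on mean level, *Klf3* was nearer a call but still not called (limma, adjusted p = 0.0676).

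*Klf6* (chromosome 13, 5861489 to 5870393), a broadly expressed KLF that activated lymphocytes make, was the most abundant of the 9 genes. Its values were 4658, 4785 and 4377 normalized reads in WT libraries and 6301, 6236 and 6436 in RORγtN275D cells. The mutant libraries had an SD of 1.61% of their mean and all lay above WT. The log2 fold change of *Klf6* was 0.46 (limma, adjusted p = 9.80e-08, standard error 0.04).

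*Klf13* (chromosome 7, 63886351 to 63938915), which promotes late *Ccl5* transcription in activated T cells, had 2237, 2183 and 2164 normalized reads in WT libraries and 2897, 2985 and 2753 in the mutant. Each mutant library again exceeded each WT library, by a log2 fold change of 0.39 (limma, adjusted p = 1.25e-06, standard error 0.04). The rises of *Foxo1*, *Klf6* and *Klf13* were thus of like size, from 31.2% to 37.3% of the WT mean. The ratio of *Klf6* to *Klf2* reads, from 249.7 to 288 in WT and from 274 to 343 in mutant libraries, overlapped between genotypes (exact permutation test, two-sided p = 0.5).

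*Il7r* (chromosome 15, 9506159 to 9529941), the IL-7 receptor alpha chain that resting and memory T cells need for survival, showed the largest change of the 9 genes. It had 594, 622 and 559 normalized reads in WT libraries and 1557, 1429.6 and 1518 in RORγtN275D cells. The lowest mutant library was more than 2-fold above the highest WT library. The mean rose from 592 ± 31.8 to 1502 ± 65.4 (3 libraries each, SD), a log2 fold change of 1.34 (limma, adjusted p = 1.49e-11, standard error 0.05). By log2 fold change *Il7r* ranked 137 from the top among 11908 genes.

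*S1pr1* (chromosome 3, 115710433 to 115715055), the S1P receptor through which T cells leave lymphoid organs, had 609, 654 and 616 normalized reads in WT libraries and 1258, 1300.2 and 1299 in the mutant. The spread within each genotype was small beside the gap, with an SD of 3.86% of the mean in WT and 1.87% in mutant libraries. The log2 fold change of *S1pr1* was 1.04 (limma, adjusted p = 1.09e-10, standard error 0.05), and its 95% interval of 0.93 to 1.14 held 1, the 2-fold mark.

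*S1pr4* (chromosome 10, 81497745 to 81500137), another S1P receptor of lymphocytes, did not rise with *S1pr1*. It had 670.2, 774 and 798 normalized reads in WT libraries and 675, 671 and 666 in the mutant. The mutant libraries were almost equal, while WT replicate 1 was as low as they were and the other WT libraries were higher. The log2 fold change was -0.15 (95% interval -0.29 to -0.02, adjusted p = 0.0569 from limma), and without WT replicate 1 it was -0.23 (adjusted p = 0.00558). Within a library, the ratio of *S1pr1* to *S1pr4* reads was 0.842 ± 0.0680 in WT and 1.92 ± 0.0468 in mutant cells (3 libraries each, SD; exact permutation test, two-sided p = 0.1).

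**Figure D2:**
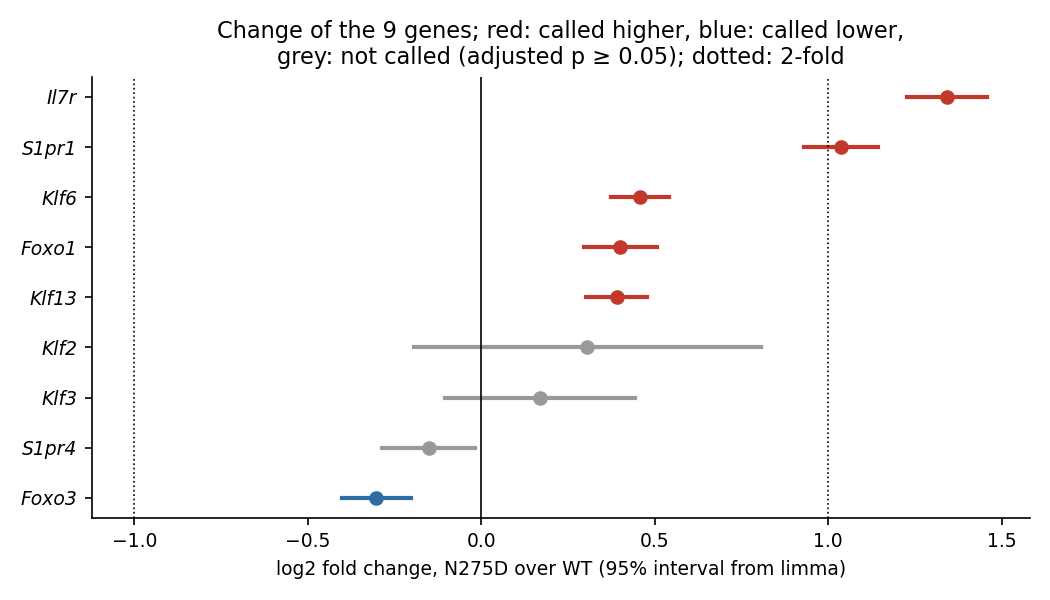
Log2 fold change of each of the 9 genes, RORγtN275D over WT (horizontal axis), with the 95% interval from limma; colours give the call and dotted lines mark 2-fold. *Il7r* at 1.34 and *S1pr1* at 1.04 stand apart from the 3 transcription factors near 0.4, and the interval of *Klf2* is the widest, from -0.19 to 0.81.

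Levels of different genes were compared as normalized reads per kilobase of exon, with exons joined over the GENCODE M21 basic transcripts of each gene, which may differ from the authors' annotation. In WT cells *Klf6* was highest at 1090.4 ± 49.5 (SD, n = 3), followed by *Klf13* at 329 ± 5.66 and *S1pr4* at 313 ± 28.4, whose ranges overlapped. *Foxo3* (235 ± 8.64), *S1pr1* (206 ± 7.94), *Il7r* (167 ± 8.99) and *Foxo1* (139 ± 7.69) came next, each with a range apart from its neighbours. *Klf3* (11.6 ± 0.338) and *Klf2* (9.21 ± 1.02) were far below. In RORγtN275D cells *Klf6* was again highest at 1497 ± 24.2 reads per kilobase. *Klf13* (432 ± 17.5), *Il7r* (424 ± 18.5) and *S1pr1* (422 ± 7.88) then formed a group with overlapping ranges, above *S1pr4* (281 ± 1.95). *Foxo3* (191 ± 7.61) and *Foxo1* (183 ± 4.81) overlapped, as did *Klf3* (13.1 ± 0.924) and *Klf2* (11.5 ± 1.20). *Il7r* thus moved from position 6 to position 3 in the order, and *S1pr4* from 3 to 5.

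The genes nearest in pattern to *Klf2*, *S1pr1* and *Il7r* were sought among the 11907 other genes tested, by the smallest root mean square difference of log2 values, each centred on its own mean over the 6 libraries. With 3 libraries a genotype, that measure mainly reads the size of the genotype difference. *Gap43* (0.024) and *Nedd4* (0.033) were among the 3 nearest to *S1pr1*. *Slc7a3* (0.040), *Gpat3* (0.052) and *Crem* (0.053) were nearest to *Il7r*, and *Enox2* (0.024), *Psd3* (0.035) and *Kif3a* (0.042) to *Klf2*. Reads of *Klf2* were few and its change was not called, so its nearest genes show little of a shared pattern.

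The wider circuit was described with 5 lists of 81 genes, of which 69 passed the minimum, and 31 of these were called higher and 17 lower. That is 69.6% called, beside 50.9% of all genes tested, of which 24.7% were called higher and 26.1% lower. The lists, too, were chosen with earlier results of these data known, which may have shaped their shares. Among 18 FOXO and KLF2 target genes tested, 11 were called higher (61.1%) and 3 lower (16.7%), with a median log2 fold change of 0.23. *Ccr7*, the chemokine receptor that guides T cells into lymph nodes, rose from 3230.0 ± 150 to 4310 ± 151 normalized reads (3 libraries each, SD), by 0.42 on the log2 scale (limma, adjusted p = 7.83e-07). The largest rises were those of *Gadd45a*, a stress-induced growth arrest gene (1.61), and *Txnip*, an inhibitor of thioredoxin and glucose uptake (1.23). *Txnip* had 2263 ± 52.6 normalized reads in WT libraries and 5316 ± 43.8 in the mutant (3 libraries each, SD). *Lef1* (-0.43), a transcription factor of naive T cells, and *Foxp1* (-0.28), which restrains *Il7r* transcription, had the largest falls. *Tcf7*, a partner of *Lef1* in naive and memory T cells, had a log2 fold change of 0.0017 (limma, adjusted p = 0.976) and was not called.

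Of the 13 other KLF genes, 9 passed the minimum, of which 4 were called higher (44.4%) and *Klf16* lower. The median log2 fold change was 0.17, and the 55.6% called lay near the 50.9% of all genes tested. *Klf4*, which restrains T cell proliferation, had 104 ± 6.58 normalized reads in WT libraries and 214 ± 11.3 in the mutant (3 libraries each, SD), a log2 fold change of 1.03 (limma, adjusted p = 2.14e-07). *Klf11*, a mostly repressive KLF, rose by 0.81. *Klf16* had a log2 fold change of -0.24 (limma, adjusted p = 0.0106), and without a trend in the prior its call was lost (adjusted p = 0.0806). WT replicate 3 was higher (1056 normalized reads) than the other WT libraries (847 and 851), and without it the log2 fold change of *Klf16* was -0.13 (limma, adjusted p = 0.0261). The other 4 KLF genes in the table had means of at most 7.67 in either genotype and were not tested.

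The 14 FOXO partners and regulators tested were split, with 6 called higher (42.9%) and 5 lower (35.7%) and a median log2 fold change of 0.024. In all, 78.6% were called, beside 50.9% of all genes tested, of which 24.7% were called higher and 26.1% lower. *Pik3ip1*, an inhibitor of PI3K that quiescent T cells express, rose from 45.7 ± 4.55 to 86.1 ± 9.56 normalized reads (3 libraries each, SD), by 0.90 on the log2 scale (limma, adjusted p = 7.75e-05). *Sgk1*, a kinase that phosphorylates FOXO proteins as AKT does, rose by 0.57 (limma, adjusted p = 0.00902). Its call was lost without WT replicate 1 (adjusted p = 0.0507) and under quantile scaling (0.0582). *Akt2* (-0.26, adjusted p = 4.05e-05) and *Skp2* (-0.28, adjusted p = 0.00472 from limma), a ubiquitin ligase subunit that marks FOXO1 for degradation, fell most. Under quantile scaling 7 genes of this list were called, in place of 11.

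Among the 16 genes of S1P receptors and S1P handling tested, 3 were called higher (18.8%) and 6 lower (37.5%), with a median log2 fold change of -0.11. Calls in either direction, at 56.2%, lay near the 50.9% of all genes tested. *Arrb1*, which encodes an arrestin that uncouples and internalizes receptors such as S1PR1, had 1311, 1372 and 1351 normalized reads in WT libraries and 3320, 3483 and 3504 in the mutant. Its log2 fold change of 1.35 (limma, adjusted p = 5.90e-13) was close to that of *Il7r*. *S1pr3*, an S1P receptor better known from vessels and heart, rose from 113 ± 16.2 to 225 ± 7.76 normalized reads (3 libraries each, SD), by 1.00 on the log2 scale (limma, adjusted p = 1.18e-06). *Sphk1*, a kinase that makes S1P, was lower by a log2 fold change of -0.45 (limma, adjusted p = 0.00168). *S1pr2*, a receptor that confines lymphocytes, had -0.25 (limma, adjusted p = 0.0137). The call of *S1pr2* was lost without N275D replicate 3 (adjusted p = 0.0777) and by DESeq2 (0.0653). *S1pr5*, the egress receptor of natural killer cells, had at most 3.03 normalized reads in any library and was not tested.

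CD69 is an early activation protein that binds S1PR1 and pulls it from the cell surface. *Cd69* had 2641, 2713 and 2384 normalized reads in WT libraries and 2169, 2220.1 and 2334 in RORγtN275D cells, so that the genotypes did not overlap. Its log2 fold change was -0.20 (limma, adjusted p = 0.00309, standard error 0.05). The ratio of *S1pr1* to *Cd69* reads was 0.243 ± 0.0141 in WT and 0.574 ± 0.0154 in mutant libraries (3 libraries each, SD), 2.36-fold higher (exact permutation test, two-sided p = 0.1).

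Among the 12 IL-7 receptor partners and pathway genes tested, 7 were called higher (58.3%) and 2 lower (16.7%), with a median log2 fold change of 0.13. In all, 75% were called, beside 50.9% of all genes tested, of which 24.7% were called higher and 26.1% lower. *Il2rg*, the common gamma chain that completes the IL-7 receptor, was lower in the mutant, with 7130 ± 164 normalized reads in WT libraries and 6116 ± 220 in the mutant (3 libraries each, SD). Its log2 fold change was -0.22 (limma, adjusted p = 0.000125). The ratio of *Il7r* to *Il2rg* reads was 0.0830 ± 0.00290 in WT and 0.246 ± 0.00793 in mutant libraries (3 libraries each, SD), 2.96-fold higher (exact permutation test, two-sided p = 0.1). *Stat5a*, which carries the signal, also fell (-0.22), whereas its close relative *Stat5b* was called higher, by 0.10 (limma, adjusted p = 0.0212). *Bcl2*, a survival gene that IL-7 maintains, rose by 0.36 (limma, adjusted p = 1.65e-06). *Gfi1*, a repressor of *Il7r*, rose by 0.50 and *Socs1*, a feedback inhibitor of cytokine receptors, by 0.38. The transcript of IL-7 itself had a mean of at most 0.334 in either genotype. The 5 ratios were chosen after their genes' values were seen, and over them the adjusted p was 0.125 for the 4 whose genotypes did not overlap.

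**Figure D3:**
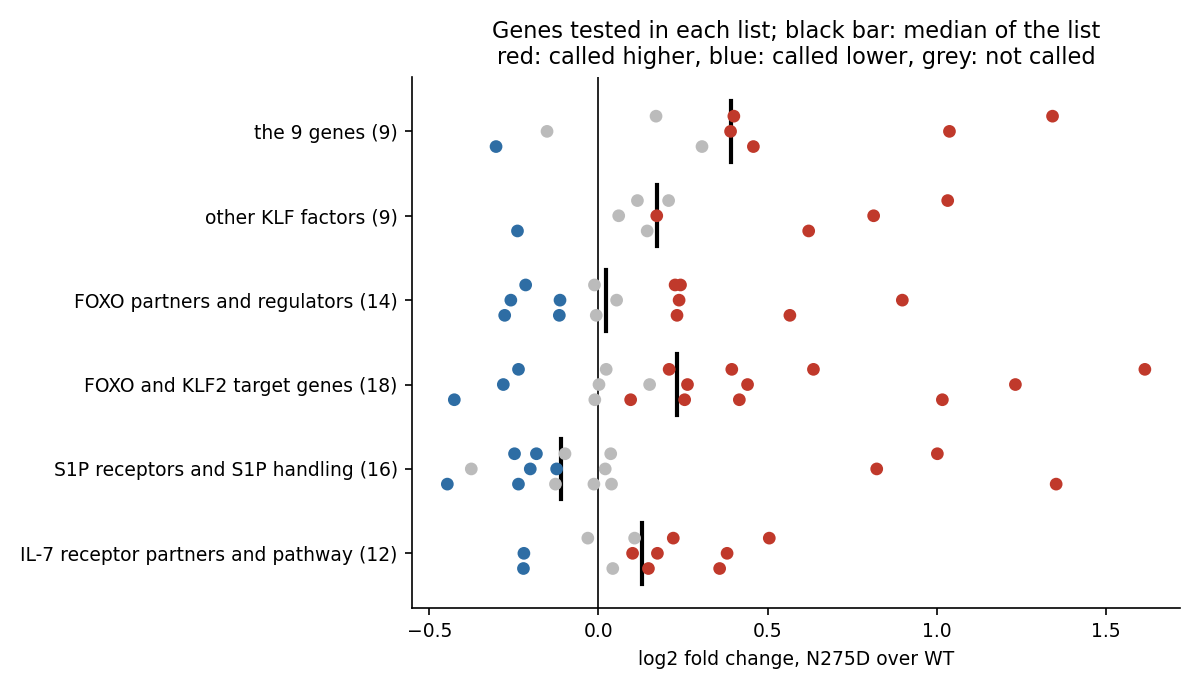
Log2 fold change, RORγtN275D over WT (horizontal axis), of each gene tested in the 9 followed genes and in the 5 lists around them; a point is a gene, coloured by its call, and the black bar is the median of the list. The medians run from -0.11 for S1P receptors and handling to 0.39 for the 9 genes, and each list holds genes called in both directions.

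**Figure D4:**
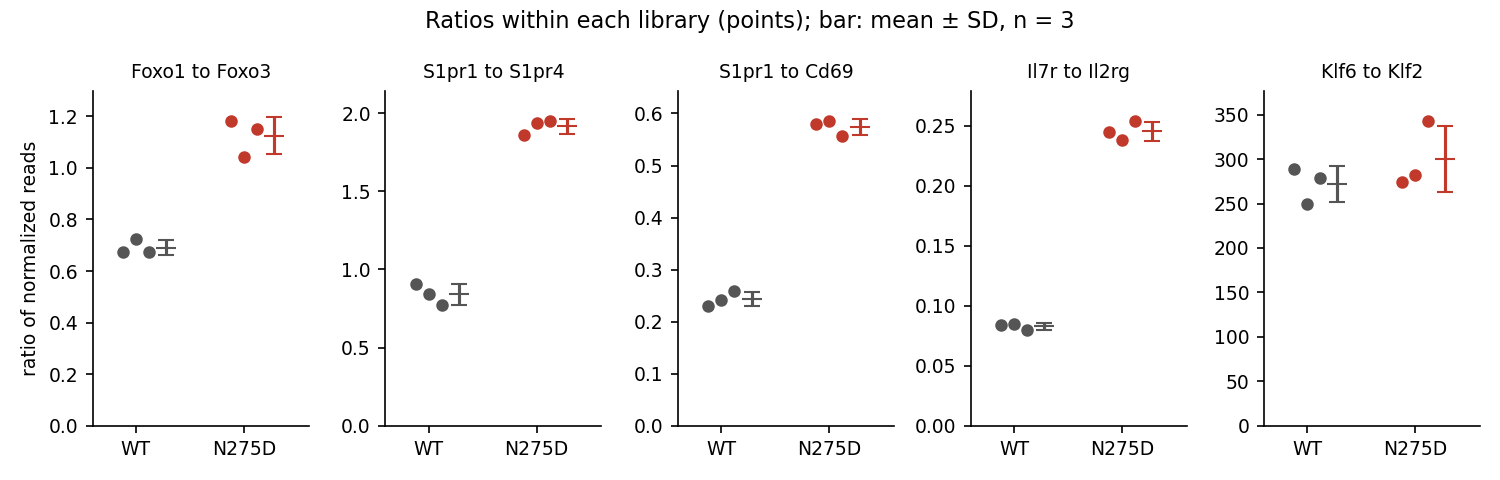
Ratio of normalized reads of gene pairs within each library (vertical axes, from 0), not corrected for gene length; points are libraries and bars are the mean ± SD. The first 4 ratios are higher in each of the 3 mutant libraries than in any WT library, and the ratio of *Klf6* to *Klf2* overlaps.

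Other lymphocytes and myeloid cells also express *S1pr1*, *S1pr4*, *Klf2* or *Foxo1*, and their markers were read in the same libraries. The 8 B cell markers summed to between 1130.4 and 1168 normalized reads in WT libraries and 1724 to 1782 in RORγtN275D libraries, and 5 of the 6 that passed the minimum were called higher. *Ebf1* held most of that sum, with a mean of 986 normalized reads in WT libraries and 1479 in the mutant, while *Ms4a1* did not exceed 9.88 and *Cd79a* did not exceed 36.1 in any library. The 6 CD8 T and natural killer cell markers in the table summed to 210 to 221 in WT and 294 to 334 in mutant libraries, with 3 of 4 tested called higher. Those were *Cd8b1*, *Klrd1* and *Eomes*, whereas *Cd8a* was not called (log2 fold change -0.22, adjusted p = 0.401 from limma). The 8 myeloid markers summed to 96.9 to 114 and 117 to 142, with 1 called higher and 1 lower of 3 tested. Of the gamma delta T cell markers, 2 were in the table (*Sox13* and *Blk*) and summed to 31.3 to 41.3 and 58.3 to 65.9, both called higher. The receptor genes *Trdc*, *Tcrg-C1*, *Tcrg-C2* and *Tcrg-C4* were not found by symbol, so no gamma delta receptor transcript was read. Beside these few markers, 24.7% of all genes tested were called higher and 26.1% lower. None of the markers read was at 0 in all libraries, and their part in the results above was not tested. *Klf3*, *Klf13* and *Foxo3* overlap other RefSeq genes that the table does not list, and the strand setting of the counting is not given in the sources used here.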

How the data were processed

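RNA-seq of 3 WT and 3 RORγtN275D libraries, labelled WT and Mut, was analysed. Per the methods, trimmed reads were mapped with STAR (mouse build mm10), summed over genes by featureCounts and compared in DESeq2; versions are not given in the sources used here. The signal columns that the authors deposited hold reads of each gene after scaling by a single factor for every library, since 100% of values were whole multiples of it, within 1e-06. The authors' deposited log2 fold changes, q-values, group averages and transcript numbers were not used. Labels and methods name different directional mRNA kits.

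Genes with a mean of at least 10 (11908) were tested in limma 3.58.1 (R 4.3.3) on log2(normalized reads + 1), which understates the change of low genes. Variances were moderated toward a trend on mean level, and Benjamini-Hochberg adjustment ran over all genes tested. The 95% intervals are from the same fit. Alternatives tried were pseudocounts of 0.1 and 10, filters at a mean over 0 and at 100, scaling by TMM or by quantiles, moderation with no trend, weights for libraries, a block on replicate number, omission of every library in turn, and recovered reads in edgeR 4.0.16 or DESeq2 1.42.0. The limma step was tested on simulated data.

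Members and lists were chosen with earlier results of these data known. Named were all 9 members, the 2 largest called rises and 2 largest called falls of each list, the genes nearest in pattern, and a few fixed partners. *Tcf7*, *Stat5b* and genes in the marker paragraph were named besides. A few genes within the rule are not reported here. Coordinates and promoters are from RefSeq, GRCm38.p6, the build mm10, matched by gene number. Libraries of a genotype differed by 1.32 to 3.05 times the counting noise (median chi-square), so none was a repeat deposit of another within that noise; this does not show separate mice or cultures. WT replicate 3 differed most.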

Additional observations from a re-analysis of the deposited data

How the results depend on the processing

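Of the 9 genes, 6 to 7 were called under each of the 17 alternatives, and *Il7r*, *S1pr1*, *Klf6*, *Klf13*, *Foxo1* and *Foxo3* kept direction and call in all of them. *Il7r* ranged from 1.30 to 1.38 and *S1pr1* from 1.02 to 1.07 on the log2 scale. *Klf3* was at -0.012 under quantile scaling (adjusted p = 0.945), and *S1pr4* was called without WT replicate 1. *Klf2* and *Klf3* were not tested at a mean of at least 100, because their means are lower. The count of all genes called stayed between 5078 and 6586 (6056 as reported, 6085 by edgeR and 5078 by DESeq2 on recovered reads), but the count at 2-fold, 427 as reported, was 259 with a pseudocount of 10, 703 with all genes with a mean above 0 and 162 with a mean of at least 100, where fewer genes were tested. Under quantile scaling 7 FOXO partners and regulators were called, not 11. The cause of that change was not tested. Same-numbered replicates of the genotypes did not deviate together (correlations across genes of -0.083 to 0.041), so no pairing by number was seen. A shared effect that is small beside the spread between libraries could be missed by this check. With the replicate block 5727 genes were called, and 6 of the 9 genes. Low reads limit what can be said of *Klf2*.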
